A study of Mus musculus with 6 samples.

Results

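Solute carrier genes encode the membrane proteins that move sugars, amino acids, peptides, ions, metals, vitamins and other small molecules across the membranes of a cell. Their transcripts were examined in intestinal stem cells from mice labelled control or Klf5-KO. Klf5 encodes a Kruppel-like DNA-binding factor with zinc fingers. The genes were chosen by symbol (GENCODE names that begin with Slc, digits and the letter a, or with Slco), leaving out the mitochondrial Slc25 family, and by a mean level of at least 2 CPM (counts-per-million of the library total) over the 6 libraries. Of 53379 genes in the files, 318 had such a symbol and 167 of these also passed the level threshold. That threshold used the level over all libraries and not the difference between the groups. Among the 167, Slc5a8, Slc5a4b and Slc7a15 had a control mean under 2 CPM and Slc51a had a Klf5-KO mean under 2 CPM, so these 4 passed through their higher group. Just inside the threshold stood Slc9a3r2, Slc5a4b and Slc7a15, at 2.47, 2.21 and 2.06 CPM, and just outside it Slc22a4, Slc39a7 and Slc22a3, at 1.94, 1.94 and 1.74 CPM.

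RNA sequencing was done on 3 libraries labelled control and 3 labelled Klf5-KO, all from adult C57BL/6 mice. The control mice carried the alleles Lgr5-EGFP-IRES-CreERT2 and Rosa-tdTomato, and the Klf5-KO mice carried both of these and Klf5fl/fl. Mice received 1 mg of tamoxifen per injection on 5 days in a row, by the text that the labels of both groups share. Cre is expressed from the Lgr5 locus, so recombination starts in Lgr5-expressing crypt base cells, and the sorted cells were those brightest for Lgr5-EGFP from crypts of the proximal small intestine. The labels do not say whether each library came from a separate mouse, so p-values reflect only the spread among the 3 libraries of a group, which may be technical.

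In the gut, carriers are best known from mature enterocytes. There, sodium-coupled importers and exchangers of the brush border take up nutrients, and facilitative carriers and exchangers of the basolateral membrane pass them to the blood. The sodium gradient that drives the coupled carriers is kept by the sodium-potassium pump. Stem cells and other dividing cells also use carriers, above all for glucose, neutral amino acids, nucleosides and iron, to supply their own growth.

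The deposited counts summed to between 61563625 and 77666540 per library. Lgr5 and the other stem cell markers were present in every library, with Lgr5 at 132, 163 and 128 CPM in control replicates 1, 2 and 3 and at 96.8, 81.2 and 84.9 CPM in Klf5-KO replicates 1, 2 and 3. Klf5 itself went against the labels. It stood at 480.3, 512 and 546 CPM in the controls, against 879.9, 918 and 877 CPM in libraries labelled Klf5-KO, higher in each of the latter (log2 change 0.80, SE 0.10, adjusted p = 6.3e-04 by edgeR). Gene-level counts leave unseen whether the floxed exons are missing, and each direction given here compares libraries labelled Klf5-KO with libraries labelled control. The summed level of 10 enterocyte markers (Alpi, Sis, Apoa1, Apoa4, Apob, Fabp1, Fabp2, Lct, Anpep and Mttp) was 1423, 1201 and 1515 CPM in control replicates 1, 2 and 3 and 3914, 2320.4 and 3096 CPM in Klf5-KO replicates 1, 2 and 3. All 10 were tested, 6 were called higher and none lower, beside 13.3% and 12.5% of all tested genes, the shares against which every count below is to be read. The summed level of 10 Paneth cell markers was 1492, 1766 and 17113 CPM in control replicates 1, 2 and 3 and 7999, 7881 and 9935 CPM in Klf5-KO replicates 1, 2 and 3, so control replicate 3 stood far above the other controls. Immune markers summed to between 19.2 and 39.3 CPM, and 8 markers of stroma and endothelium to between 1.96 and 3.32 CPM. The 8 goblet cell markers ranged from 2409.5 to 2688 CPM in the controls and from 1223 to 1568 CPM in libraries labelled Klf5-KO, and the 8 enteroendocrine markers from 146 to 294 and from 82.2 to 94.8 CPM. The 8 tuft cell markers ranged from 83.8 to 106 CPM in the controls and from 118 to 214 CPM in libraries labelled Klf5-KO. The 8 stem cell markers summed to 10523, 11720 and 8589 CPM in control replicates 1, 2 and 3 and 5660, 4534 and 5908 CPM in Klf5-KO replicates 1, 2 and 3, and 5 erythrocyte markers to at most 1.31 CPM. By edgeR, 3 of 8 goblet and 6 of 8 enteroendocrine markers were called lower with none higher, 3 of 7 tested tuft cell markers were called higher with none lower, and no Paneth cell marker was called (0 at an unadjusted p under 0.05, 0 called by DESeq2 and 0 by limma-voom). No marker on these lists was at 0 in every library. In bulk samples, fewer cells of a type and less RNA per cell cannot be told apart, and the part of these markers in the results below was not tested.

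The solute carrier genes moved in both directions, and the largest changes were rises. Of the 167 genes, 39 were called higher and 28 lower where the label was Klf5-KO, by an adjusted p below 0.05 (edgeR's quasi-likelihood test with Benjamini-Hochberg adjustment over all 19339 tested genes, used throughout). That is 23.4% higher and 16.8% lower, beside 13.3% and 12.5% of all tested genes, and beside 14.9% and 13% of the 12248 tested genes that averaged 2 CPM or more. At least 2-fold changes were seen in 16 of the genes called higher and in 11 of those called lower. The median log2 fold change (Klf5-KO against control, given in brackets below as log2 change) over the 167 genes was 0.02, against −0.01 over all tested genes. Klf5-KO replicate 2 was the lowest library of its group for 23 of the 39 genes called higher and for 15 of the 28 called lower. The same count over all tested genes is not given here, so these counts cannot be read as particular to solute carriers. The enterocyte marker sum was also lowest in Klf5-KO replicate 2 within its group, and the part of this in the changes was not tested. Without control replicate 3 and Klf5-KO replicate 2 together, 49 were called higher and 29 lower.

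**Figure D1:**
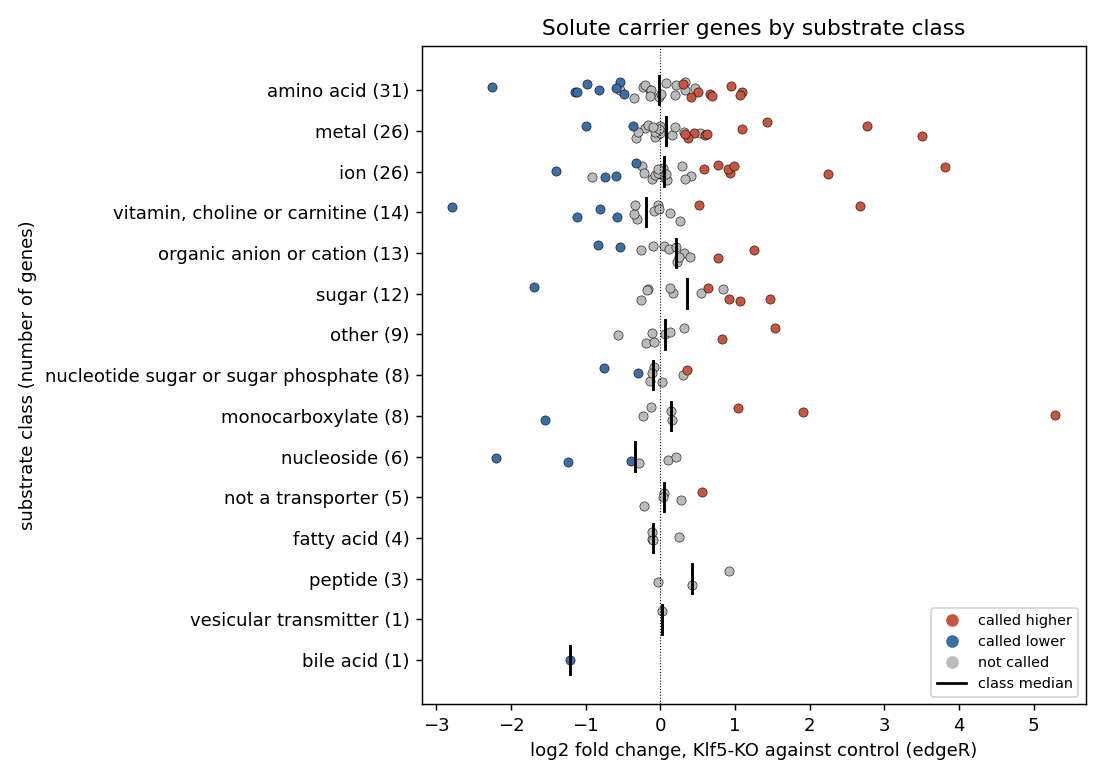
Log2 fold change (Klf5-KO against control, edgeR) of each of the 167 genes, in rows by substrate class with the number of genes in brackets; points are genes, coloured by call at an adjusted p under 0.05, and black bars are class medians. Amino acid carriers spread to both sides with 8 called each way, 9 of 26 metal carriers were called higher, and Slc5a8 of the monocarboxylate class lies farthest right at 5.29.

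By length-scaled level (TPM, transcripts-per-million, mean over the 6 libraries), the genes spanned a wide range, with a median of 11.7 TPM. The highest was Slc12a2, the basolateral sodium-potassium-chloride importer and a known crypt marker, at 667 TPM. Next came Slc9a3r1 (178 TPM), which encodes a scaffold protein and not a carrier, the amino acid carrier Slc38a2 (142 TPM), the fatty acid carrier Slc27a2 (137 TPM) and the glucose importer Slc5a1 (99.2 TPM). Of these 5, Slc5a1, Slc38a2 and Slc9a3r1 were called higher. Slc12a2 stood at 1540.5, 1783 and 1387 CPM in the controls, against 2099, 1755 and 1932 CPM in libraries labelled Klf5-KO. The groups overlapped, and the difference was not called (log2 change 0.30, SE 0.13, adjusted p = 0.14). Of the 8 stem cell markers, which include Slc12a2, 6 were called lower and 1, Prom1, higher.

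The promoters of genes at both ends of the range are shown, since the Klf5 protein binds GC-rich and CACCC-type elements. RefSeq promoter windows (build GRCm38.p6, 250 bases before to 50 after the start) were found for 124 of the 167 genes. They were searched on both strands for CCCCNCCC, where N is any base, and for CACCC, and matches may overlap each other. Below are those of the 2 genes with the largest rises and the 2 with the largest falls among called genes that averaged 5 CPM or more and had a window that could be printed, 5′ to 3′ on the gene's strand, with every match to either motif in capitals.
Slc5a8 (chr10:88885742-88886041, plus strand): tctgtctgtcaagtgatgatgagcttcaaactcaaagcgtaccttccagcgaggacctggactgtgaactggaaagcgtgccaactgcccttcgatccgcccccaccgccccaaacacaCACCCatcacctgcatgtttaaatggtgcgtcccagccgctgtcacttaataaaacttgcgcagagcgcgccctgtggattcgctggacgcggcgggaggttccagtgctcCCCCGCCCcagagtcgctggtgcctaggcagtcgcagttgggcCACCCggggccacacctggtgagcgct
Slc30a10 (chr1:185454598-185454897, plus strand): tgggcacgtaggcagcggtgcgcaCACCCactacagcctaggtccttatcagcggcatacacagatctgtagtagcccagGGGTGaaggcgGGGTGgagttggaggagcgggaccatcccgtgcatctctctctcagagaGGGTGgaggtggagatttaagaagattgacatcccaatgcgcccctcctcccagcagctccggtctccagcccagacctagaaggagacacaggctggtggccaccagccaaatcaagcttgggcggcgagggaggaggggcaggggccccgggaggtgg
Slc44a2 (chr9:21320469-21320768, plus strand): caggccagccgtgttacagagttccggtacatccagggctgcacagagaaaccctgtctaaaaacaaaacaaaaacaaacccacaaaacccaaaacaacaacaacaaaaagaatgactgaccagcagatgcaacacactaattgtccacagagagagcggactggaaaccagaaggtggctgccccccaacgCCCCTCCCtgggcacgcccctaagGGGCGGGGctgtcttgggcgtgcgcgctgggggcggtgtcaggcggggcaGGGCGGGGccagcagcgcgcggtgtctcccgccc
Slc28a3 (chr13:58610828-58611127, minus strand): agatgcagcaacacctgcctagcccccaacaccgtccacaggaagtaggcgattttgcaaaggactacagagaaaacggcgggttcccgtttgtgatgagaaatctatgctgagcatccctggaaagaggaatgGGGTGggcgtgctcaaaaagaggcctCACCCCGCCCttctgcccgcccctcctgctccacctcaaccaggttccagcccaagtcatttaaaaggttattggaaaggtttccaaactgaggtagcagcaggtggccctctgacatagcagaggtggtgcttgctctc
Slc13a1 rose more than Slc30a10 and Slc6a7 fell more than Slc28a3, but their windows are not printed. RefSeq lists 2 starts for Slc44a2, and the window of the start nearer to the gene's own is shown. The Slc5a8 window held 1 match to CCCCNCCC and 2 to CACCC, that of Slc30a10 none and 4, that of Slc44a2 3 and none, and that of Slc28a3 1 and 2. CCCCNCCC was present in 13 of 27 windows of genes called higher, in 15 of 21 of genes called lower and in 42 of 76 of genes not called, which is 48.1%, 71.4% and 55.3%. It was present in 33.2% of all 32851 windows and in 48.3% of the 11764 windows of genes averaging 2 CPM or more. CACCC was present in 77.8%, 52.4% and 73.7% of the windows of the same 3 sets, in 57.5% of all windows and in 62.8% of those of genes at 2 CPM or more. These are descriptions of letters, with no test.

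Sugar carriers were called higher more often than lower. Of 12 genes, 4 were called higher and 1 lower, with a median log2 fold change of 0.36. Slc5a1, the sodium-coupled glucose and galactose importer of the brush border (chromosome 5, 33104219 to 33162870, mm10), stood at 106, 139 and 144 CPM in the controls, against 227, 200.3 and 176 CPM in libraries labelled Klf5-KO. The groups did not overlap (log2 change 0.64, SE 0.14, adjusted p = 0.0088). Slc2a2, the facilitative carrier through which glucose and fructose leave the enterocyte, stood at 7.45, 5.63 and 9.01 against 18.4, 10.3 and 12.9 CPM (log2 change 0.92, SE 0.23, adjusted p = 0.018). Its call was lost without control replicate 2 or Klf5-KO replicate 1 (adjusted p = 0.067 to 0.072). Slc5a9, a sodium-coupled carrier of mannose and related sugars, rose from 12.97 ± 1.98 to 27.1 ± 3.92 CPM (SD, n = 3 each; log2 change 1.06, SE 0.15, adjusted p = 9.7e-04), and Slc5a11, a sodium-coupled inositol carrier, from 2.58 ± 0.766 to 7.10 ± 2.97 CPM (adjusted p = 0.011). The fructose carrier gene Slc2a5 stood at 7.37, 6.74 and 11.1 CPM in the controls, against 17.05, 8.79 and 10.9 CPM in libraries labelled Klf5-KO, overlapping and not called (adjusted p = 0.16). Slc2a1, the glucose carrier of most dividing cells, differed by 0.17 on the log2 scale and was not called either (adjusted p = 0.29). The one fall was that of Slc2a13, a proton-coupled inositol carrier, from 7.65 ± 1.45 to 2.38 ± 0.364 CPM (log2 change −1.69, SE 0.19, adjusted p = 3.9e-04). The other genes not called, Slc5a4b, Slc50a1, Slc2a8, Slc5a3 and Slc45a4, had log2 fold changes from −0.26 to 0.84. Summed over the class, the level was 178 ± 5.43 TPM in the controls and 227 ± 25.1 TPM in the libraries labelled Klf5-KO, and Slc5a1 held 48.98% of it.

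**Figure D2:**
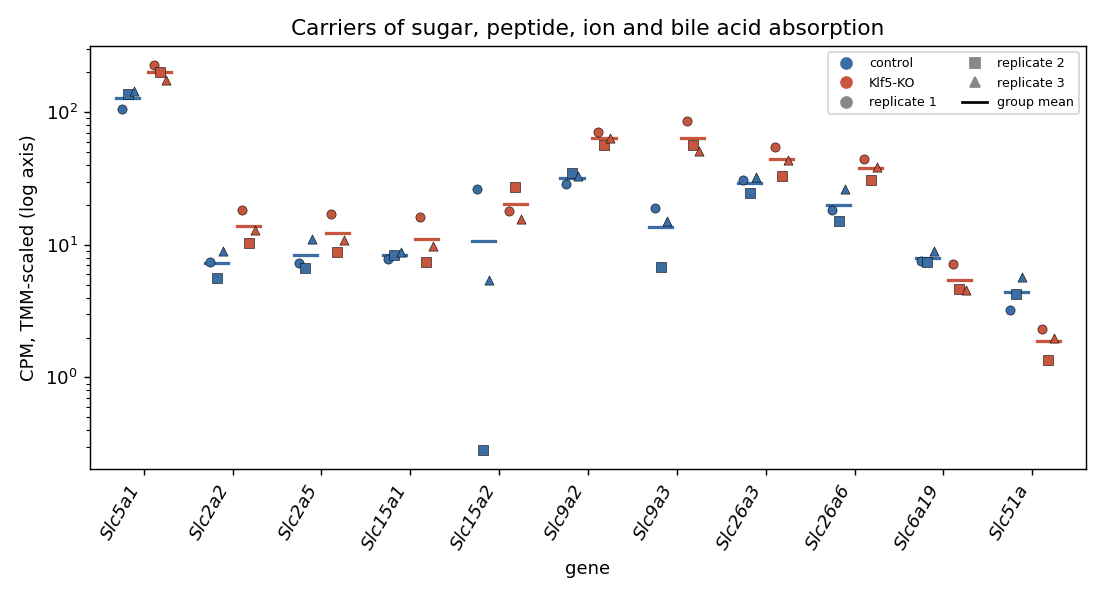
CPM (TMM-scaled, log axis) in each library of carrier genes for sugars, peptides, ions, amino acids and bile acids, with importers and exporters. Symbols are replicates, colours are groups and bars are group means. Slc9a2 and Slc9a3 lie higher in every library labelled Klf5-KO, the groups overlap for Slc15a1 and Slc15a2, and Slc15a2 in control replicate 2 stands alone at 0.285 CPM.

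Peptide carriers gave no call among 3 genes by edgeR (0 at an unadjusted p under 0.05, 0 called by DESeq2 and 0 by limma-voom). Slc15a1, the proton-coupled importer of dipeptides and tripeptides in the brush border, stood at 7.89, 8.33 and 8.80 CPM in the controls, against 16.3, 7.37 and 9.82 CPM in libraries labelled Klf5-KO (log2 change 0.42, SE 0.25, adjusted p = 0.24). Klf5-KO replicate 1 was the highest library and replicate 2 was below every control. Slc15a2, a high-affinity relative best known from the kidney, stood at 26.6, 0.285 and 5.42 against 17.9, 27.5 and 15.6 CPM (adjusted p = 0.52). The controls thus spanned nearly the whole range of the gene, and without control replicate 1 it was called higher (adjusted p = 0.04). The lysosomal carrier gene Slc15a4 was not called, at 18.9 ± 1.05 and 18.6 ± 1.77 CPM (adjusted p = 0.88).

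Monocarboxylate carriers held the largest rise of all 167 genes. Of 8 genes, 3 were called higher and 1 lower, and the median log2 fold change was 0.15. Slc5a8, which couples the uptake of lactate, short-chain fatty acids and nicotinate to sodium (chromosome 10, 88885992 to 88929515), had 1.61, 1.30 and 2.36 CPM in the controls, against 75.02, 64.5 and 64.6 CPM in libraries labelled Klf5-KO. Every library labelled Klf5-KO was far above every control (log2 change 5.29, SE 0.20, adjusted p = 1.3e-06). Slc16a7, a proton-coupled carrier of pyruvate and lactate, stood at 1.14, 1.37 and 3.57 against 7.29, 8.27 and 7.04 CPM (log2 change 1.90, SE 0.37, adjusted p = 0.0058), and without control replicate 3, the highest control, the log2 fold change was 2.58. Its relative Slc16a11 rose from 4.52 ± 0.521 to 9.32 ± 1.77 CPM (adjusted p = 0.0026). Slc16a5, another relative, fell, from 12.4, 13.01 and 22.7 CPM in the controls to 6.84, 3.63 and 5.95 CPM in libraries labelled Klf5-KO (log2 change −1.55, SE 0.28, adjusted p = 0.004). Slc16a1, the main lactate carrier of the class, held 52.5% of the summed TPM and was not called, at 115 ± 15.9 and 127 ± 4.81 CPM (adjusted p = 0.36). Slc16a3, the lactate exporter of glycolytic cells, was low in both groups (3.88 ± 2.11 and 3.28 ± 0.257 CPM, adjusted p = 0.65). Slc16a6 and Slc16a13 were not called (adjusted p = 0.58 and 0.38). The other sodium-coupled gene of the class, Slc5a12, lay under the level threshold, at 2.12, 0.986 and 2.10 CPM in the controls, against 0.993, 0.763 and 0.994 CPM in libraries labelled Klf5-KO (adjusted p = 0.062).

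**Figure D3:**
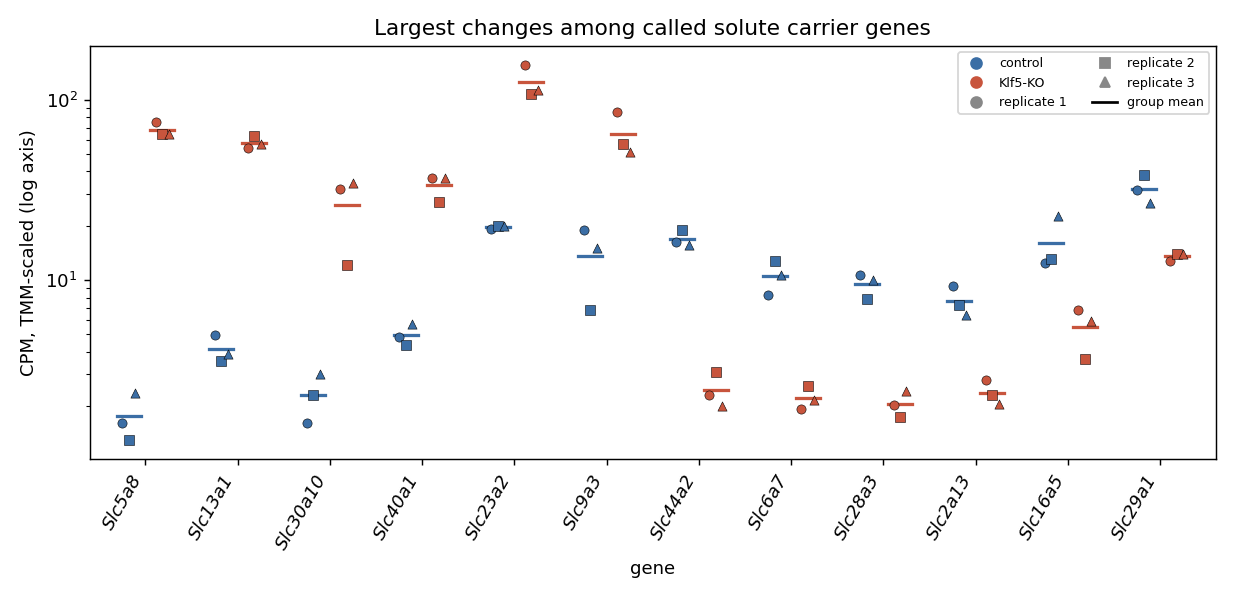
CPM (TMM-scaled, log axis) in each library for the 6 largest rises (left) and the 6 largest falls (right) among called genes averaging 5 CPM or more; symbols are replicates, colours are groups and bars are group means. In all 12 the groups lie apart, which choosing called genes with the largest changes made likely, so it is no separate result. Klf5-KO replicate 2 lies below its group for Slc30a10.

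Amino acid carriers were the largest class, with 31 genes, of which 8 were called higher, 8 lower and 15 not called (median log2 fold change −0.02). The summed level was 708 ± 63.9 TPM in the controls and 687 ± 35.7 TPM in the libraries labelled Klf5-KO. Several exchangers of this class are pairs of a heavy chain (Slc3a1 or Slc3a2), which brings the complex to the membrane, and a light chain of the Slc7 family, which transports. Both heavy chains rose. Slc3a2, the partner of most light chains, stood at 62.2, 60.8 and 71.5 CPM in the controls, against 109.6, 100.05 and 105 CPM in libraries labelled Klf5-KO (log2 change 0.69, SE 0.09, adjusted p = 7.6e-04). Slc3a1, the heavy chain of the brush border exchanger of cystine and basic amino acids, stood at 25.9, 23.9 and 24.6 against 50.9, 44.4 and 48.2 CPM (log2 change 0.95, SE 0.09, adjusted p = 1.3e-04). In neither did the groups overlap. The light chains went different ways. Slc7a8, a basolateral exchanger of neutral amino acids (chromosome 14, 54722209 to 54781946), rose from 39.98, 57.6 and 52.6 to 101, 107 and 106 CPM (log2 change 1.06, SE 0.13, adjusted p = 5.0e-04). Slc7a5, the exchanger of large neutral amino acids such as leucine, stood at 63.4, 66.9 and 75.5 CPM in the controls, against 44.4, 61.4 and 40.4 CPM in libraries labelled Klf5-KO and was called lower (log2 change −0.49, adjusted p = 0.038), but not without control replicate 1, 2 or 3 or Klf5-KO replicate 1 or 3 (adjusted p = 0.0503 to 0.14). Slc7a7, the basolateral exchanger of basic for neutral amino acids, fell from 14.5, 13.6 and 22.6 to 9.17, 6.18 and 8.05 CPM (log2 change −1.11, SE 0.21, adjusted p = 0.0053). Its close relative Slc7a6 was not called (log2 change −0.14, adjusted p = 0.48), nor was Slc7a9, the light chain that pairs with Slc3a1 (log2 change 0.33, adjusted p = 0.21). By TPM, Slc3a2 was at 47.1 in the controls, against 47.4 for Slc7a5 and 25.6 for Slc7a8. In the libraries labelled Klf5-KO the same genes were at 71.4, 31.4 and 50.1 TPM, so the order of the 2 light chains by mean level was turned.

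**Figure D4:**
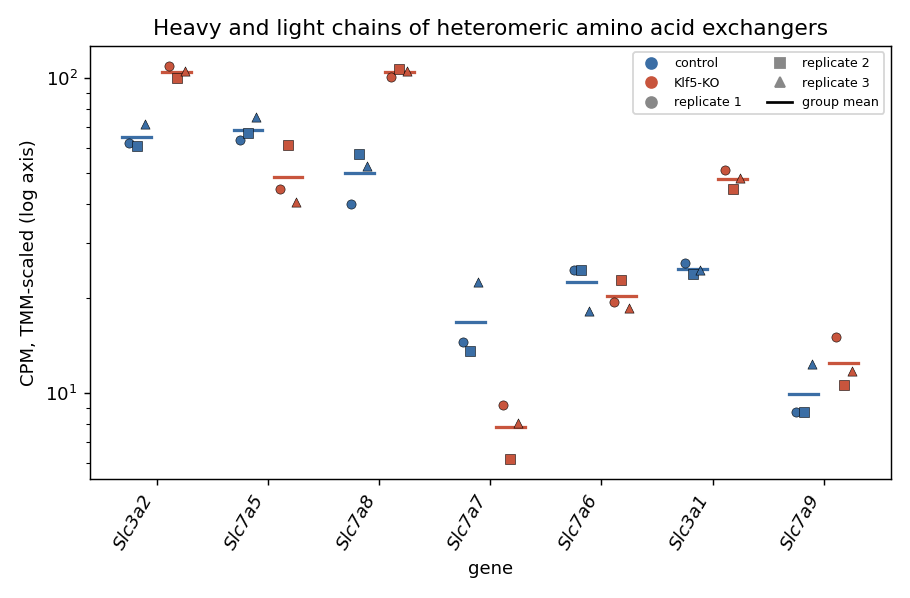
CPM (TMM-scaled, log axis) in each library of the heavy chain genes Slc3a2 and Slc3a1 and of their light chain genes; symbols are replicates, colours are groups and bars are group means. Slc3a2, Slc7a8 and Slc3a1 lie higher and Slc7a5 and Slc7a7 lower in every library labelled Klf5-KO than in any control, while Slc7a6 and Slc7a9 overlap.

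In the Slc1 family of glutamate and neutral amino acid carriers, 3 of 5 genes were called lower and 1 higher. Slc1a1, the sodium-coupled glutamate importer of the brush border, stood at 33.7, 36.04 and 29.5 CPM in the controls, against 15.1, 21.3 and 13.9 CPM in libraries labelled Klf5-KO (log2 change −0.98, SE 0.16, adjusted p = 0.0024). Slc1a3, a glutamate importer best known from glia, fell from 36.97 ± 3.36 to 16.8 ± 3.00 CPM (log2 change −1.14, SE 0.14, adjusted p = 5.6e-04). Slc1a5, the glutamine and neutral amino acid exchanger of proliferating cells, fell from 182, 190.4 and 171 to 119, 137 and 117 CPM (log2 change −0.55, SE 0.09, adjusted p = 0.0029). Its relative Slc1a4 went the other way, from 13.5 ± 1.88 to 21.3 ± 1.13 CPM (log2 change 0.66, SE 0.12, adjusted p = 0.0044). Slc6a7, a high-affinity proline carrier (chromosome 18, 60995381 to 61014199), showed the largest fall of the class, from 8.29, 12.8 and 10.7 to 1.93, 2.59 and 2.15 CPM (log2 change −2.25, SE 0.20, adjusted p = 8.9e-05), and the taurine carrier gene Slc6a6 fell from 137 ± 21.3 to 90.8 ± 10.2 CPM (adjusted p = 0.0084). Slc16a10, a carrier of aromatic amino acids, rose from 65.5 ± 6.42 to 92.9 ± 5.57 CPM (log2 change 0.50, SE 0.10, adjusted p = 0.0051).

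Slc6a19, the main brush border importer of neutral amino acids, stood at 7.53, 7.39 and 8.92 against 7.16, 4.66 and 4.53 CPM and missed the threshold (adjusted p = 0.069). It was called lower by DESeq2 (adjusted p = 0.028), when genes of low count were kept (adjusted p = 0.036) and without Klf5-KO replicate 1 (adjusted p = 0.017). Slc6a20a, the importer of proline and other imino acids, was uneven within the Klf5-KO group, at 16.04, 3.80 and 9.06 CPM, and was not called (adjusted p = 0.77). Without control replicate 3 and Klf5-KO replicate 2 together, it was called higher (adjusted p = 0.023). Slc38a2, a sodium-coupled carrier of small neutral amino acids and the highest of the class by TPM, stood at 254, 217 and 241 against 311, 268 and 299 CPM. Its small rise (log2 change 0.30, adjusted p = 0.049) was lost without control replicate 1, 2 or 3 or Klf5-KO replicate 1 or 3 (adjusted p = 0.055 to 0.16) and when ribosomal-like and mitochondrial genes were removed (adjusted p = 0.0504). Slc38a9, a lysosomal sensor of arginine, and Slc7a15 were also called higher (log2 fold changes 0.41 and 1.09), and Slc7a2, an importer of basic amino acids, lower (−0.82). The Slc38a9 call was lost without control replicate 1 or 2 or Klf5-KO replicate 1 or 3 (adjusted p = 0.066 to 0.081), the Slc7a15 call without control replicate 2 or Klf5-KO replicate 1 (adjusted p = 0.054 to 0.062) and the Slc7a2 call without control replicate 2 or Klf5-KO replicate 1, 2 or 3 (adjusted p = 0.054 to 0.097). The basic amino acid importer Slc7a1 and the basolateral exit carrier Slc43a2 were not called (adjusted p = 0.2 and 0.95). The cystine exchanger gene Slc7a11 lay under the level threshold, at 0.701 ± 0.0935 and 0.848 ± 0.442 CPM. The remaining amino acid genes not called were Slc38a1, Slc38a10, Slc36a1, Slc38a7, Slc1a2, Slc7a4, Slc38a6, Slc6a9 and Slc38a4, with log2 fold changes from −0.35 to 0.46.

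Among carriers of sodium, chloride, bicarbonate, phosphate and sulfate, 7 of 26 genes were called higher and 4 lower (median log2 fold change 0.05). The largest rise was that of Slc13a1, the sodium-coupled sulfate importer (chromosome 6, 24088283 to 24168092), which stood at 4.93, 3.57 and 3.87 CPM in the controls, against 54.3, 62.7 and 56.6 CPM in libraries labelled Klf5-KO (log2 change 3.81, SE 0.14, adjusted p = 1.3e-06). Genes of sodium-proton exchange and chloride-bicarbonate exchange at the brush border rose with it. Slc9a3, the main apical sodium-proton exchanger (chromosome 13, 74121457 to 74169442), went from 18.9, 6.81 and 15.2 to 85.4, 56.5 and 51.2 CPM (log2 change 2.24, SE 0.33, adjusted p = 0.0015), with the lowest value in control replicate 2 and the highest in Klf5-KO replicate 1. Slc9a2, a second apical exchanger, went from 28.8, 34.6 and 33.3 to 70.7, 57 and 64.03 CPM (log2 change 0.99, SE 0.11, adjusted p = 3.2e-04). Slc26a6, an apical exchanger of chloride, bicarbonate and oxalate, went from 18.4, 15.1 and 26.4 to 44.6, 30.6 and 38.8 CPM (log2 change 0.93, SE 0.20, adjusted p = 0.0099). Slc26a3, the chloride-bicarbonate exchanger whose loss causes chloride diarrhoea in people, stood at 30.9, 24.6 and 32.8 against 55.1, 33.3 and 43.9 CPM (log2 change 0.58, adjusted p = 0.037). The Slc26a3 call was lost without control replicate 1 or 2 or Klf5-KO replicate 1 or 3 (adjusted p = 0.065 to 0.14).

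In the Slc4 family, 2 bicarbonate importers were called higher and no gene was called lower. Slc4a7 rose from 70.5, 63.2 and 60.99 to 129, 102 and 103 CPM (log2 change 0.78, SE 0.11, adjusted p = 0.0013), and the low-level gene Slc4a8 from 2.29 ± 0.0314 to 4.27 ± 0.505 CPM (adjusted p = 0.005). Slc4a4, the basolateral sodium-bicarbonate carrier, was not called, at 112 ± 9.18 and 119 ± 5.00 CPM (adjusted p = 0.53). Among the falls, the phosphate importer gene Slc20a1 went from 41.5, 42.98 and 51.02 to 24.2, 29.1 and 27.7 CPM (log2 change −0.74, SE 0.11, adjusted p = 0.0016), and Slc12a3, the thiazide-sensitive sodium-chloride carrier best known from the kidney, from 5.82 ± 1.42 to 2.20 ± 0.606 CPM (log2 change −1.40, SE 0.25, adjusted p = 0.0039). The sulfate carrier gene Slc26a2 and the iodide carrier gene Slc5a5 were called lower by small margins (adjusted p = 0.031 and 0.046). The Slc26a2 call was lost without control replicate 2 or 3 or Klf5-KO replicate 2 or 3 (adjusted p = 0.0502 to 0.12), and the Slc5a5 call without control replicate 1 or 3 or Klf5-KO replicate 1, 2 or 3 (adjusted p = 0.053 to 0.16). The Slc5a5 call was also lost by limma-voom (adjusted p = 0.052) and when more than 1 CPM was required in 3 libraries (adjusted p = 0.052). Slc12a7, a potassium-chloride carrier, differed by −0.25 on the log2 scale and narrowly missed the call (adjusted p = 0.052). The other ion genes not called, among them Slc4a2, Slc20a2 and Slc12a9, had log2 fold changes from −0.91 (Slc4a11) to 0.41 (Slc4a5). The class summed to 981 ± 142 TPM in the controls and 1097 ± 124 TPM in the libraries labelled Klf5-KO, of which Slc12a2 held 64.2%.

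Metal carriers rose more often than they fell, with 9 of 26 genes called higher and 2 lower (median log2 fold change 0.08). Zinc enters cells through the Slc39 family and is moved out of the cytosol by the Slc30 family. Slc39a4, the apical zinc importer whose loss causes zinc deficiency in people (chromosome 15, 76612385 to 76616852), stood at 41.3, 40.1 and 37.7 CPM in the controls, against 89.4, 75.1 and 90.7 CPM in libraries labelled Klf5-KO (log2 change 1.10, SE 0.10, adjusted p = 9.1e-05). Slc39a8, an importer of zinc and manganese, went from 29.5, 34.3 and 29.2 to 78.8, 86.5 and 85.2 CPM (log2 change 1.43, SE 0.09, adjusted p = 1.9e-05). Slc39a14, which carries zinc, manganese and iron, went from 62.6, 81.8 and 68.8 to 107, 119 and 102 CPM (log2 change 0.63, SE 0.11, adjusted p = 0.004). In all 3 the groups lay apart. Slc39a5, a zinc importer of the basolateral membrane, fell, from 70.2, 78.8 and 89.04 to 44.9, 28.9 and 45.9 CPM (log2 change −0.99, SE 0.17, adjusted p = 0.0031). By mean TPM, Slc39a5 was above Slc39a4 in the controls (91.2 ± 3.02 against 46.2 ± 6.54) and below it in the libraries labelled Klf5-KO (43.2 ± 11.4 against 91.9 ± 11.9).

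Exporters showed the largest changes of the class. Slc30a10, a manganese exporter of the apical membrane (chromosome 1, 185454848 to 185468762), stood at 1.61, 2.31 and 3.02 CPM in the controls, against 32.1, 12.1 and 34.3 CPM in libraries labelled Klf5-KO (log2 change 3.51, SE 0.39, adjusted p = 3.2e-04). Klf5-KO replicate 2 was well below the other libraries of its group, though above every control. Slc40a1, ferroportin, the basolateral iron exporter (chromosome 1, 45908068 to 45926523), went from 4.84, 4.38 and 5.68 to 36.9, 27.2 and 36.8 CPM (log2 change 2.76, SE 0.16, adjusted p = 8.3e-06). The apical and endosomal iron importer Slc11a2 rose less, from 37.4, 38.4 and 35.5 to 51.5, 47.9 and 52.6 CPM (log2 change 0.45, SE 0.08, adjusted p = 0.0045), as did the copper importer Slc31a1, from 45.3 ± 5.75 to 68.4 ± 4.85 CPM (log2 change 0.59, SE 0.11, adjusted p = 0.0044). The zinc importer genes Slc39a1 and Slc39a3 and the zinc exporter gene Slc30a1 had small differences, of 0.33, −0.36 and 0.36 on the log2 scale (adjusted p = 0.028, 0.03 and 0.046). The Slc39a1 call was lost without control replicate 1 or 2 or Klf5-KO replicate 2 or 3 (adjusted p = 0.055 to 0.082), the Slc39a3 call without control replicate 2 or 3 or Klf5-KO replicate 1 or 2 (adjusted p = 0.07 to 0.13) and the Slc30a1 call without control replicate 1 or 2 or Klf5-KO replicate 1, 2 or 3 (adjusted p = 0.074 to 0.17). The Slc30a1 call was also lost when more than 1 CPM was required in 3 libraries (adjusted p = 0.059) and when ribosomal-like and mitochondrial genes were removed (adjusted p = 0.051), and the Slc39a3 call when genes of low count were kept (adjusted p = 0.082). Carriers of zinc into the secretory pathway (Slc30a5, Slc30a6 and Slc30a7) were not called, with log2 fold changes from −0.04 to 0.19. The other 12 metal genes not called had log2 fold changes from −0.32 (Slc30a4) to 0.53 (Slc41a2).

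**Figure D5:**
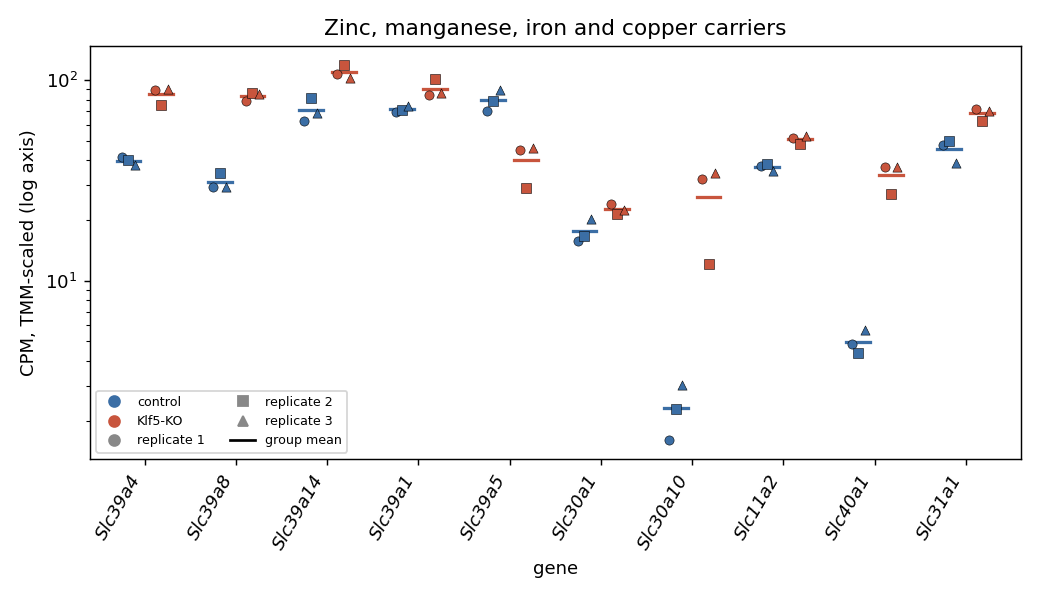
CPM (TMM-scaled, log axis) in each library of called carriers of zinc (Slc39 and Slc30 genes), manganese (Slc39a8, Slc39a14, Slc30a10), iron (Slc11a2, Slc40a1) and copper (Slc31a1). Symbols are replicates, colours are groups and bars are group means. Only called genes were drawn: of the 26 metal genes, the 15 not called and Slc39a3, called lower, are left out. Slc39a5 is lower and the other 9 are higher in every library labelled Klf5-KO than in any control, by the most for Slc30a10 and Slc40a1.

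Bile acid carriers were represented by a lone gene, Slc51a, which encodes the alpha subunit of the basolateral bile acid exporter. It stood at 3.20, 4.23 and 5.76 CPM in the controls, against 2.32, 1.36 and 1.99 CPM in libraries labelled Klf5-KO, and was called lower (log2 change −1.22, SE 0.27, adjusted p = 0.011). Slc51b, the gene of the beta subunit, which the symbol rule leaves out, went the other way, from 1.37, 0.895 and 1.69 to 5.84, 3.12 and 4.05 CPM (log2 change 1.72, SE 0.30, adjusted p = 0.0033). The ileal importer gene Slc10a2, under the level threshold, also rose, from 0.880, 0.532 and 0.420 to 2.73, 2.83 and 2.33 CPM (log2 change 2.10, SE 0.29, adjusted p = 0.001). The 3 genes were all low, and Slc51a passed the level threshold through its higher group, the controls.

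Carriers of vitamins, choline and carnitine held some of the largest changes in both directions, with 2 of 14 genes called higher and 4 lower (median log2 fold change −0.19). Slc23a2, the sodium-coupled vitamin C importer of most tissues (chromosome 2, 132052496 to 132145108), stood at 19.2, 19.97 and 20.03 CPM in the controls, against 156, 107 and 114 CPM in libraries labelled Klf5-KO (log2 change 2.67, SE 0.14, adjusted p = 7.4e-06). Its relatives Slc23a4 and Slc23a3 fell. Slc23a4, known in the rat as a nucleobase carrier, went from 41.1, 36.6 and 33.4 to 17.6, 16 and 17.7 CPM (log2 change −1.11, SE 0.11, adjusted p = 1.3e-04), and Slc23a3 from 7.01 ± 1.70 to 4.00 ± 0.542 CPM (adjusted p = 0.017), a call lost without Klf5-KO replicate 2 (adjusted p = 0.062). Slc44a2, a choline carrier (chromosome 9, 21320698 to 21355028), showed the largest fall of all 167 genes, from 16.3, 18.9 and 15.6 to 2.29, 3.08 and 2.00 CPM (log2 change −2.79, SE 0.18, adjusted p = 1.6e-05). The groups were far apart. The more abundant choline carrier gene Slc44a1 was not called (log2 change −0.35, adjusted p = 0.061). The riboflavin carrier gene Slc52a2 rose from 18.2 ± 2.22 to 25.98 ± 1.57 CPM (adjusted p = 0.01). Slc5a6, the carrier of biotin and pantothenate, fell from 19.2 ± 3.57 to 12.8 ± 0.963 CPM (adjusted p = 0.015), a call lost without Klf5-KO replicate 1 or 3 (adjusted p = 0.064). The folate carriers Slc19a1 and Slc46a1, the thiamine carrier Slc19a2 and the carnitine carrier Slc22a5 were not called (adjusted p = 0.12, 0.95, 0.31 and 0.88), nor were Slc44a3, Slc44a4 and Slc52a3.

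No nucleoside carrier was called higher, and 3 of 6 genes were called lower. Leaving out 1 library at a time gave 0 to 1 called higher and 2 to 3 called lower. Slc28a3, a sodium-coupled importer of nucleosides, stood at 10.6, 7.88 and 10.1 CPM in the controls, against 2.03, 1.74 and 2.42 CPM in libraries labelled Klf5-KO (log2 change −2.20, SE 0.19, adjusted p = 7.3e-05). Slc29a1, the main facilitative nucleoside carrier of the plasma membrane (chromosome 17, 45585200 to 45599606), went from 31.4, 38.2 and 26.6 to 12.8, 13.99 and 13.9 CPM (log2 change −1.24, SE 0.13, adjusted p = 2.8e-04). The groups did not overlap in either gene. The lysosomal carrier gene Slc29a3 fell by little (log2 change −0.39, adjusted p = 0.042), and its call was lost without control replicate 1 or 2 or Klf5-KO replicate 1, 2 or 3 (adjusted p = 0.079 to 0.16). It was also lost with no low-count filter (adjusted p = 0.1). Slc28a2, Slc29a2 and Slc28a1 were not called (adjusted p = 0.36, 0.26 and 0.89). The class summed to 53.3 ± 8.13 TPM in the controls and 35.5 ± 3.48 TPM in the libraries labelled Klf5-KO.

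Among 8 carriers of nucleotide sugars and sugar phosphates, which serve the endoplasmic reticulum and Golgi, 1 was called higher and 2 lower. Slc37a1, a carrier of glucose 6-phosphate, fell from 54.96, 59.2 and 67.2 to 34.6, 39.5 and 33.2 CPM (log2 change −0.76, SE 0.11, adjusted p = 0.0011). Slc35a3, the Golgi carrier of UDP-N-acetylglucosamine, fell from 92.3 ± 3.75 to 74.8 ± 3.61 CPM (adjusted p = 0.023), and Slc35a1, the carrier of CMP-sialic acid, rose from 21.5 ± 1.14 to 27.5 ± 1.46 CPM (adjusted p = 0.02). Both calls were lost on leaving out 1 library, that of Slc35a3 being lost without control replicate 1 or 2 or Klf5-KO replicate 2 or 3 (adjusted p = 0.064 to 0.089) and that of Slc35a1 without Klf5-KO replicate 1 or 3 (adjusted p = 0.07 to 0.09). The other 5 genes had log2 fold changes from −0.14 to 0.31.

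Of 13 carriers of organic anions and cations, 2 were called higher and 2 lower. Slco2a1, the importer that clears prostaglandins from outside the cell, rose from 14.1, 10.5 and 15.6 to 36.02, 30.5 and 29 CPM (log2 change 1.25, SE 0.15, adjusted p = 5.6e-04). Slc17a4, an intestinal carrier of organic anions, stood at 33.7, 35.2 and 30.9 against 71.03, 32.2 and 67.1 CPM and was the only gene called higher whose groups overlapped (adjusted p = 0.044). Its value in Klf5-KO replicate 2 was within the control range, and the call was lost without control replicate 1, 2 or 3 or Klf5-KO replicate 1 or 3 (adjusted p = 0.089 to 0.16), by limma-voom (adjusted p = 0.08) and when more than 1 CPM was required in 3 libraries (adjusted p = 0.051). Slco4a1, a carrier of thyroid hormone, fell from 20.6, 17.1 and 22.8 to 12.6, 11 and 10.2 CPM (log2 change −0.84, SE 0.13, adjusted p = 0.0022), and Slc22a23 from 42.6 ± 2.62 to 29.3 ± 3.33 CPM (adjusted p = 0.0056). The 9 genes not called lay between −0.25 (Slc22a21) and 0.39 (Slc22a17) on the log2 scale.

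The fatty acid carriers Slc27a1, Slc27a2, Slc27a3 and Slc27a4, which bring long-chain fatty acids into cells or activate them, gave no call by edgeR (0 at an unadjusted p under 0.05, 0 called by DESeq2 and 0 by limma-voom), with log2 fold changes from −0.12 to 0.25. Without control replicate 3 and Klf5-KO replicate 2 together, Slc27a4 was called higher (adjusted p = 0.014). Slc27a2 stood at 215 ± 5.86 CPM in the controls, against 199 ± 26.3 CPM in libraries labelled Klf5-KO (adjusted p = 0.46). Of 9 genes with other substrates, 2 were called higher. Slc10a5 rose from 4.68 ± 0.637 to 8.27 ± 2.07 CPM (adjusted p = 0.017), a call lost without control replicate 2 or Klf5-KO replicate 1 or 3 (adjusted p = 0.058 to 0.072). Those not called were the creatine carriers Slc6a8 and Slc16a12, the urea carrier Slc14a1, the serotonin carrier Slc6a4, the acetyl-CoA carrier Slc33a1, Slc10a3 and Slc10a7. The vesicular monoamine carrier gene Slc18a1, a gene of enteroendocrine cells, was not called, with 2.83, 2.85 and 6.12 CPM in the controls, against 3.90, 4.08 and 3.99 CPM in libraries labelled Klf5-KO. It was highest in control replicate 3, where the enteroendocrine markers were also highest, and without that library it was called higher (adjusted p = 0.049). Of 5 genes that share the naming but encode no carrier, Slc9a3r1, the scaffold that anchors Slc9a3 and other brush border proteins to ezrin, rose from 102, 108 and 128 to 169, 162 and 165 CPM (log2 change 0.56, SE 0.10, adjusted p = 0.0034). Slc9a3r2, Slc4a1ap, Slc7a6os and Slc2a4rg-ps were not called.

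Genes that work with these carriers were counted from lists, whole. These lists were chosen with earlier results of these data known, so their direction is not independent evidence. Of 11 genes of the sodium pump and carrier partners, 5 were called higher and none lower, beside 13.3% of all tested genes called higher. The median log2 fold change of the 11 was 0.50, against −0.01 over all tested genes. The 5 include Slc9a3r1 and Slc51b, whose rises are already given above, so this count is not separate from those results. Cltrn, collectrin, a partner of neutral amino acid importers of the Slc6 family, rose from 0.192, 0.285 and 0.387 to 4.64, 2.68 and 4.68 CPM (log2 change 3.80, SE 0.33, adjusted p = 8.8e-05). Atp1b1, a beta subunit of the sodium-potassium pump, rose from 759 ± 64.97 to 1071 ± 34.98 CPM (log2 change 0.50, SE 0.11, adjusted p = 0.01). Bsg, the chaperone of monocarboxylate carriers, was not called (adjusted p = 0.59). Of 10 genes of iron and zinc handling, 3 were called higher and 1 lower, beside 13.3% and 12.5% of all tested genes (median log2 fold change 0.32). Heph, the ferroxidase that works with ferroportin, rose from 55.1 ± 1.24 to 81.1 ± 7.90 CPM (log2 change 0.56, SE 0.09, adjusted p = 0.0025), and Tfrc, the transferrin receptor, fell from 478, 418 and 312 to 278, 248 and 272 CPM (log2 change −0.60, SE 0.15, adjusted p = 0.016). The metallothionein genes Mt1 and Mt2, which respond to zinc, were uneven within both groups and not called (adjusted p = 0.69 and 0.84).

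Of 7 genes of bile acid handling, 6 were tested (Fabp6 was not), 4 were called higher and 1, the basolateral exporter gene Abcc3, lower, beside the same shares of all tested genes. Nr1h4, the bile acid receptor, rose from 18.4, 14.8 and 21.05 to 59.8, 65.3 and 52.6 CPM (log2 change 1.71, SE 0.14, adjusted p = 6.0e-05), and the apical exporter gene Abcc2 from 24.7, 54.6 and 65.8 to 276, 141 and 166 CPM (log2 change 2.01, SE 0.35, adjusted p = 0.0033). Of 10 genes of the Atf4 response to amino acid shortage, which drives several amino acid carriers, 1 was called higher (Phgdh, adjusted p = 0.039) and none lower (median log2 fold change 0.14). Among 9 channels of the epithelium, 1 rose and 5 fell, beside 12.5% of all tested genes called lower (median log2 fold change −1.26). Cftr, the apical chloride channel, rose from 347 ± 32.5 to 566 ± 53.1 CPM (log2 change 0.71, SE 0.11, adjusted p = 0.0021). The basolateral potassium channel genes Kcnn4 and Kcnq1 and the subunit gene Kcne3 fell, with log2 fold changes of −2.26, −1.26 and −2.94. Kcne3 stood at 199, 234 and 185 CPM in the controls, against 22.2, 25.8 and 32.6 CPM in libraries labelled Klf5-KO, with no overlap.

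From the core list of 46 transporters of the small intestine, 21 were called higher and 7 lower, beside 13.3% and 12.5% of all tested genes, with a median log2 fold change of 0.35, against −0.01 over all tested genes. The list was chosen with earlier results of these data known, so its direction is not independent evidence.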

How the data were processed

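Libraries were grouped by their labels into 3 control and 3 Klf5-KO. The values are counts of reads per gene that the authors deposited, made with featureCounts 1.4.3-p1 counting reverse-stranded reads on GENCODE annotation, per the file headers. STAR 2.5.2a, DESeq2 1.18.1 and mm10 are named in the submitters' processing notes.

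Totals ranged from 61563625 to 77666540 counts per library; 3 counts, the limit that a count of 0 allows, are 0.0386 to 0.0487 CPM (counting error only). Symbols from GENCODE were matched to 53274 of 53379 gene IDs. All genes passing filterByExpr were fitted with edgeR 4.0.16 in R 4.3.3 (TMM scaling, quasi-likelihood test, group as the only term, Benjamini-Hochberg adjustment over 19339 genes, threshold 0.05), after the procedure was tested on simulated counts. CPM given per library are TMM-scaled, and TPM were computed from counts and exon lengths. Levels compared between genes are TPM.

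Named genes were, in each substrate class, up to 4 called in each direction with the smallest adjusted p, the gene with the highest TPM, those with the largest change among called genes at 5 CPM or more, 46 core transporters, the 3 genes on each side of the level threshold, and up to 3 called genes of each partner list; others named were chosen after their values were seen. Members, classes and lists were chosen with earlier results of these data known. Alternatives were RLE scaling, other filters, removal of ribosomal-like and mitochondrial genes, DESeq2 1.42.0, limma-voom (limma 3.58.1), a replicate block, each library left out and other level thresholds. Leaving out control replicate 3 and Klf5-KO replicate 2 together was added after seeing the data. Exons of 7 of the 167 genes overlap another gene on the same strand, by over 20% in 1 of them. A few genes are not reported here by name. Promoters are from RefSeq (GRCm38.p6).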

Additional observations from a re-analysis of the deposited data

How the results depend on the processing

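Leaving out 1 library at a time gave 30 to 42 genes called higher, 21 to 31 called lower and a median log2 fold change of 0.0031 to 0.079, the highest without Klf5-KO replicate 2. Over the other alternatives, 35 to 49 were called higher and 25 to 33 lower. Of the 67 called genes, 48 kept their call in every alternative fit and 19 lost it without at least 1 library. Of 1204 values of 86 named genes, 1105 kept their side of the threshold, 80 lost the call (17 genes) and 19 gained it (10 genes). No gene called in the main fit turned direction. Some genes not called did, such as Slc6a20a, with a log2 fold change of 0.21 that ranged from −0.37 to 0.99 among the alternatives. Without control replicate 3 and Klf5-KO replicate 2 together, Slc6a20a was called higher (adjusted p = 0.023, edgeR). Leave-one-out counts were 5 to 9 higher and 6 to 8 lower for amino acids, 6 to 8 and 2 to 4 for ions, 7 to 9 and 1 to 2 for metals, and 3 to 4 and 1 for sugars. The cause of these shifts was not tested.

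With the replicate number as a block, 37 were called higher and 25 lower, with a median log2 fold change of 0.04, and 61 of the 67 kept their call; those that lost it were Slc7a2, Slc26a2, Slc5a5, Slc30a1, Slc29a3 and Slc17a4. The labels link same-numbered libraries only by the number, and their deviations from the group mean correlated at −0.0095, 0.0055 and −0.041. These values cannot show whether such libraries were prepared together. The limits are 3 libraries a group, Klf5 counts that go against the labels, and depth: 3 counts are at most 0.0487 CPM in a library, well under the 2 CPM of the level threshold.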

Other observations

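Under the threshold of 2 CPM, 63 of 151 solute carrier genes were tested, and 11 were called higher and 10 lower, beside 13.3% and 12.5% of all tested genes. The genes named here, other than Slc34a2, were chosen after their values were seen. Slc19a3, a thiamine importer of the gut, stood at 0.316, 0.246 and 0.436 CPM in the controls, against 2.29, 1.28 and 1.71 CPM in libraries labelled Klf5-KO (log2 change 2.41, SE 0.32, adjusted p = 8.6e-04, edgeR). Slc12a4, a potassium-chloride carrier, stood at 0.151, 0.182 and 0.161 against 1.42, 1.87 and 1.19 CPM (log2 change 3.16, SE 0.30, adjusted p = 1.4e-04). Slc16a9, a relative of the monocarboxylate carriers, rose from 0.526 ± 0.305 to 1.88 ± 0.242 CPM (SD, n = 3 each; adjusted p = 0.0088, edgeR). Slc4a3, a chloride-bicarbonate exchanger, rose from 0.586 ± 0.218 to 1.64 ± 0.222 CPM (adjusted p = 0.0071, edgeR).

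Among the falls, Slc2a4, the insulin-regulated glucose carrier, stood at 0.866, 0.817 and 1.501 CPM in the controls, against 0.292, 0.312 and 0.414 CPM in libraries labelled Klf5-KO (adjusted p = 0.007, edgeR). Slc4a1, the chloride-bicarbonate exchanger of red cells, fell from 0.542 ± 0.134 to 0.122 ± 0.0426 CPM (adjusted p = 0.0043, edgeR). Slc29a4, a monoamine carrier, fell from 1.14 ± 0.210 to 0.415 ± 0.145 CPM (adjusted p = 0.01, edgeR). Each of these 7 calls was kept in every alternative fit that tested the gene. Slc2a4, Slc4a1 and Slc29a4 were tested in 13 alternative fits and the others in 14. The phosphate importer gene Slc34a2 was not called (log2 change −0.05, adjusted p = 0.96).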
